A study of Arabidopsis thaliana with 4 samples.

Results

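The 10 genes described here act in the synthesis of aliphatic glucosinolates in Arabidopsis thaliana: the regulators MYB28 (AT5G61420), MYB29 (AT5G07690) and MYB76 (AT5G07700), and the enzyme genes BCAT4 (AT3G19710), MAM1 (AT5G23010), MAM3 (AT5G23020), CYP79F1 (AT1G16410), CYP79F2 (AT1G16400), CYP83A1 (AT4G13770) and FMO GS-OX1 (AT1G65860). They were taken by gene ID from a table of 33610 genes, with earlier results of these data known. All 10 of 10 passed the filter on low counts, which left 21322 genes for testing. The table gives RNA sequencing counts of 2-week-old Col-0 seedlings grown on MS medium. The 4 groups were wild type without treatment, wild type treated with abscisic acid (ABA) for 12 h, a lincRNA11195 mutant without treatment, named for a long intergenic noncoding RNA, and the same mutant treated with ABA for 12 h. Each group held 3 biological replicates, which gave 12 libraries. All groups share the Col-0 background. The labels name a single mutant and give neither its allele nor the ABA dose. The effect of the mutation and any other difference of that line from wild type cannot be told apart.

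Aliphatic glucosinolates are sulfur-rich defence compounds of the mustard family that are made from methionine. The methionine side chain is first lengthened. The aminotransferase BCAT4 acts at the entry, and repeated rounds follow that include a condensation by the methylthioalkylmalate synthases MAM1 and MAM3. The lengthened amino acid is then turned into the glucosinolate core by the cytochrome P450 enzymes CYP79F1 or CYP79F2 and CYP83A1, and the side chain is oxidised by flavin monooxygenases such as FMO GS-OX1. MAM1 is known for the short-chain products, whereas MAM3 and CYP79F2 are known for the long-chain ones, and CYP79F1 accepts chains of all lengths. MYB28, MYB29 and MYB76 are R2R3 MYB transcription factors that activate the enzyme genes. When tissue is damaged, myrosinases cleave the glucosinolates into toxic products. ABA is a plant hormone of the response to water shortage.

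Total counts were 14691544 to 22477294 per library, so that a floor of 3 counts corresponded to 0.133 to 0.204 CPM (counts scaled to the library total) before scaling. Levels are given in CPM scaled by TMM factors. The seedling label was checked against marker genes fixed for this purpose. The root marker PYK10 stood at 1370 to 2060 CPM in every library, the 3 seed markers summed to at most 0.172 CPM with CRU3 at 0 counts in all libraries, and the 3 flower markers summed to at most 2.01 CPM. The root marker CASP5 stood at 0 to 0.24 CPM without ABA. The ABA marker RD29A stood at 29 to 78.7 CPM in untreated and at 728 to 1360 CPM in ABA libraries. The 4 green tissue markers (RBCS1A, LHCB1.1, LHCB2.1 and RCA) moved with the groups. They summed to 22600 to 25600 CPM in untreated wild type, 6160 to 6990 CPM in wild type with ABA, 4850 to 10900 CPM in the untreated mutant and 3370 to 6090 CPM in the mutant with ABA. Their part in the results below was not tested, and in RNA from whole seedlings fewer cells of a type and less RNA per cell cannot be told apart. The transcript of lincRNA11195 was not analysed here, so the mutant rests on its label.

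Per length, CYP83A1, BCAT4 and MAM1 had the highest mean levels of the 10 in untreated wild type. On the scale of CPM per kilobase of exonic length, the means were 133 ± 23.5 for CYP83A1 (± SD, n = 3 here and below), 119 ± 11.4 for BCAT4, 101 ± 9.1 for MAM1, 67.2 ± 6.66 for MAM3, 57.8 ± 4.27 for MYB28, 46.6 ± 7.28 for CYP79F1, 22.6 ± 1.42 for CYP79F2, 14.5 ± 2.93 for FMO GS-OX1, 10.8 ± 2.13 for MYB29 and 0.756 ± 0.152 for MYB76. Replicates overlapped between CYP83A1 and BCAT4, BCAT4 and MAM1, MAM3 and MYB28, MYB28 and CYP79F1, and FMO GS-OX1 and MYB29. Within each untreated wild type library, the first gene of each of these pairs was still the higher one. No test compared the genes with one another. The annotated exons of CYP79F1 add up to 3272 bases against 2018 bases for CYP79F2, while their coding lengths are 1617 and 1614 bases, so the per-length level of CYP79F1 depends on which exons are transcribed. With ABA in wild type the order was BCAT4 at 84.3 ± 17.6, MAM1 at 79.9 ± 9.18, CYP83A1 at 73.4 ± 9.4, CYP79F1 at 70.1 ± 14.1, MYB28 at 34.1 ± 10.6, FMO GS-OX1 at 14.3 ± 2.7, MYB29 at 12 ± 5.45, MAM3 at 7.26 ± 5.22, CYP79F2 at 4.21 ± 2.11 and MYB76 at 4.17 ± 1.1. The means of MAM3 and CYP79F2 thus stood below those of MYB29 and FMO GS-OX1, which they had exceeded without treatment. The ABA libraries of MAM3 overlapped with those of MYB29 and with those of FMO GS-OX1, although MAM3 was below both within each library. The order of the means with ABA did not hold in every wild type library. MAM1 (77.5) was above BCAT4 (74.8) in replicate 2. In replicate 3 CYP79F1 (84.2) was above CYP83A1 (83.7), and MYB29 (17.9) was above FMO GS-OX1 (17.4). In replicate 1 MYB76 (3.4) was above MAM3 (2.8) and CYP79F2 (2.39).

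The first question the design asks is how wild type seedlings respond to ABA. Of the 10 genes, 4 fell, 1 rose and 5 did not pass the test (edgeR quasi-likelihood test, Benjamini-Hochberg adjusted p under 0.05 over all tested genes). In the same comparison 53.4% of all tested genes were called, 28.2% lower and 25.2% higher, so the number called among the 10 is near the background. The median log2 fold change was -0.42 over the 10 genes and -0.03 over all tested genes. The size of the changes differed widely among the 10. MAM3 and CYP79F2 fell several-fold, CYP83A1 and MYB28 less than 2-fold, MYB76 rose, and BCAT4, MAM1, CYP79F1, FMO GS-OX1 and MYB29 did not pass the test.

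**Figure D1:**
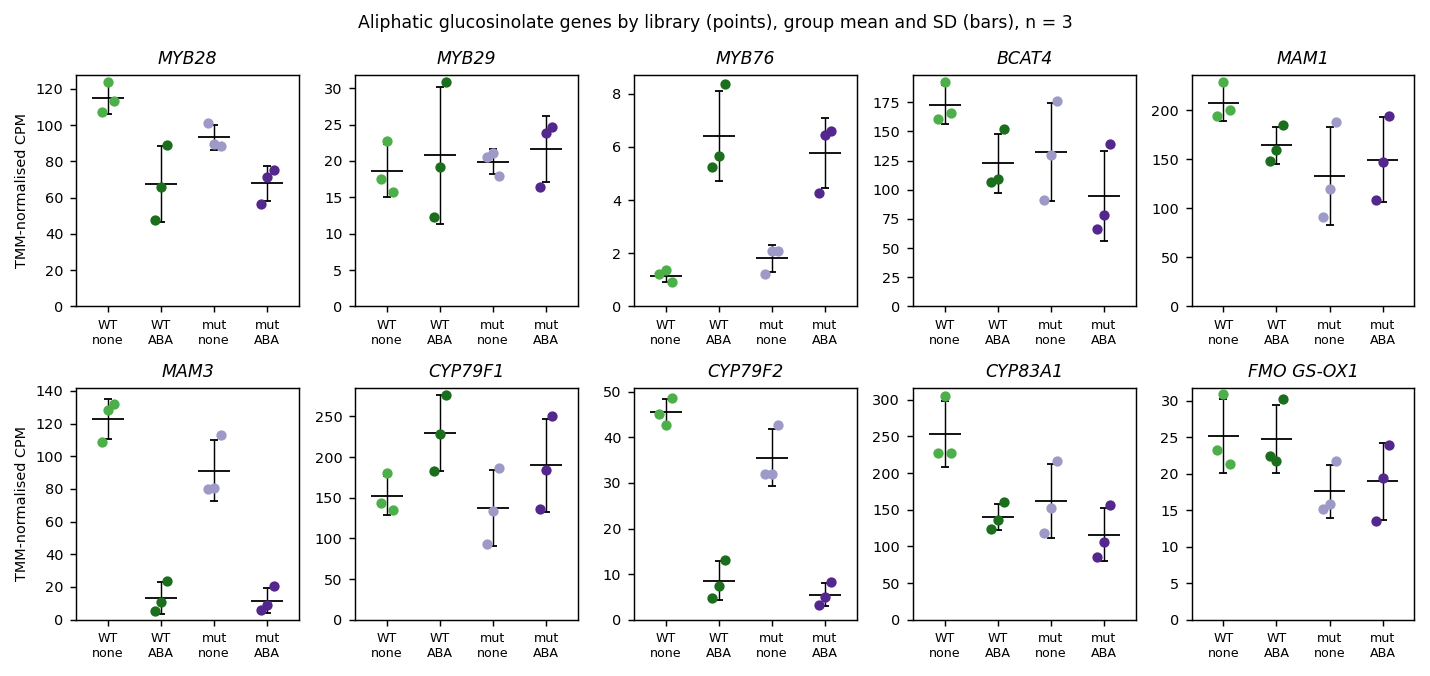
Level of each of the 10 genes in TMM-normalised CPM (vertical axes from 0, one scale per gene) in wild type (WT) and mutant (mut) seedlings without treatment and with ABA. Points are libraries, lines group means and bars SD (n = 3). MAM3 and CYP79F2 are low and MYB76 is high in all 6 ABA libraries.

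Among the regulators, MYB28, the main activator of the pathway, stood at 107, 124 and 113 CPM in untreated wild type and at 47.5, 65.8 and 89.2 CPM with ABA. The groups did not overlap, and the spread with ABA was wide, with replicate 3 highest. The log2 fold change was -0.76 ± 0.20 (± SE; edgeR adjusted p = 0.00582). MYB29, which is partly redundant with MYB28, stood at 17.5, 22.8 and 15.7 CPM without and 12.3, 19.1 and 30.9 CPM with ABA. Its groups overlapped and its difference did not pass the test (0.16 ± 0.28, edgeR adjusted p = 0.65). MYB76, the neighbour of MYB29 on chromosome 5, went from 1.22, 1.35 and 0.901 CPM to 5.23, 5.64 and 8.35 CPM. It was the least abundant of the 10 genes without treatment, with 15 to 22 counts per library, and its ABA libraries held 106 to 194 counts. The rise was 2.46 ± 0.30 on the log2 scale, 5.51-fold (edgeR adjusted p = 2.7e-05).

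Of the chain elongation genes, MAM3 changed most. It stood at 109, 128 and 132 CPM in untreated wild type and at 5.13, 10.9 and 23.8 CPM with ABA. All 3 ABA libraries lay far below all untreated ones, and replicate 3 kept the most. The log2 fold change was -3.20 ± 0.50, a 9.21-fold fall (edgeR adjusted p = 0.000191), and it was -3.93 without wild type ABA replicate 3. MAM1, its tandem neighbour, went from 194, 229 and 200 CPM to 148, 159 and 185 CPM. Its groups did not overlap, but the difference of -0.34 ± 0.25 did not pass the test (edgeR adjusted p = 0.269). BCAT4, which feeds methionine into chain elongation, stood at 161, 192 and 166 CPM without and 107, 109 and 152 CPM with ABA. These groups did not overlap either, and the value of -0.50 ± 0.28 did not pass (edgeR adjusted p = 0.151). In the annotation BCAT4 overlaps AT3G19700, and the sources used here do not say whether counting used the strand, so its counts may include reads of that gene.

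Among the core structure genes, CYP79F2 behaved differently from its tandem neighbour CYP79F1. CYP79F2 went from 45.2, 42.8 and 48.6 CPM in untreated wild type to 4.83, 7.5 and 13.2 CPM with ABA, a fall of 5.33-fold (-2.41 ± 0.34 on the log2 scale, edgeR adjusted p = 9.12e-05). CYP79F1 stood at 143, 180 and 135 CPM without and 183, 229 and 276 CPM with ABA. All 3 ABA libraries of CYP79F1 were above all untreated ones, but the difference of 0.59 ± 0.27 did not pass the test (edgeR adjusted p = 0.081). It was called when the libraries of the 2 groups were fitted alone (0.63, edgeR adjusted p = 0.0202). CYP83A1, which acts after both, fell from 227, 305 and 228 CPM to 124, 136 and 160 CPM (-0.85 ± 0.25, edgeR adjusted p = 0.0119). This call was lost without wild type untreated replicate 2, the library with the highest level (-0.65, edgeR adjusted p = 0.0624). FMO GS-OX1, for side chain oxidation, stood at 21.3 to 30.9 CPM without and 21.8 to 30.2 CPM with ABA, and its groups overlapped almost fully (-0.02 ± 0.23, edgeR adjusted p = 0.951). Of the 10 genes, 8 had wild type groups that did not overlap, against 62.5% of all tested genes.

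The mutant was asked the same question. There 2 of the 10 genes fell, 1 rose and 7 did not pass the test, against 42.5% of all tested genes called, 21.1% lower and 21.5% higher. MAM3 went from 80.2, 80.5 and 113 CPM to 5.86, 8.7 and 20.4 CPM, a fall of 7.84-fold (-2.97 ± 0.50, edgeR adjusted p = 0.000487). All ABA libraries were far below the untreated ones, with replicate 3 again the highest of the ABA libraries, and without it the value was -3.64. CYP79F2 went from 31.9, 31.9 and 42.8 CPM to 3.16, 5.04 and 8.19 CPM, a fall of 6.52-fold (-2.70 ± 0.35, edgeR adjusted p = 6.98e-05). MYB76 rose from 1.22, 2.1 and 2.09 CPM to 4.26, 6.46 and 6.6 CPM (1.66 ± 0.28, 3.16-fold, edgeR adjusted p = 0.000469). For MAM3, CYP79F2 and MYB76 no ABA library overlapped an untreated one in either genotype.

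The other 7 genes did not pass in the mutant. MYB28 stood at 101, 89.8 and 88.7 CPM without and 56.7, 71.6 and 75.2 CPM with ABA, and its groups did not overlap (-0.46 ± 0.20, edgeR adjusted p = 0.0768). This value was called with offsets for GC content and length (-0.62, edgeR adjusted p = 0.00859), when the 2 groups were fitted alone (-0.48, edgeR adjusted p = 0.0337), without wild type ABA replicate 1 (edgeR adjusted p = 0.0307) and without wild type ABA replicate 3 (edgeR adjusted p = 0.034). CYP83A1 stood at 118, 152 and 217 CPM without and 86.1, 106 and 156 CPM with ABA, which overlapped (-0.49 ± 0.25, edgeR adjusted p = 0.136). BCAT4, at -0.48 ± 0.28, had 91.6, 130 and 176 CPM without and 66.2, 78.7 and 139 CPM with ABA. Without mutant ABA replicate 3, which was the highest ABA library of both, CYP83A1 and BCAT4 were called lower (-0.76 and -0.87, edgeR adjusted p = 0.028 and 0.0165), and 5 of the 10 genes were called. CYP83A1 was also called without mutant untreated replicate 1 (-0.67, edgeR adjusted p = 0.0479). The remaining values were 0.46 ± 0.27 for CYP79F1, 0.17 ± 0.25 for MAM1, 0.12 ± 0.27 for MYB29 and 0.11 ± 0.23 for FMO GS-OX1. Groups did not overlap for 4 of the 10 genes, against 50.2% of all tested genes.

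**Figure D2:**
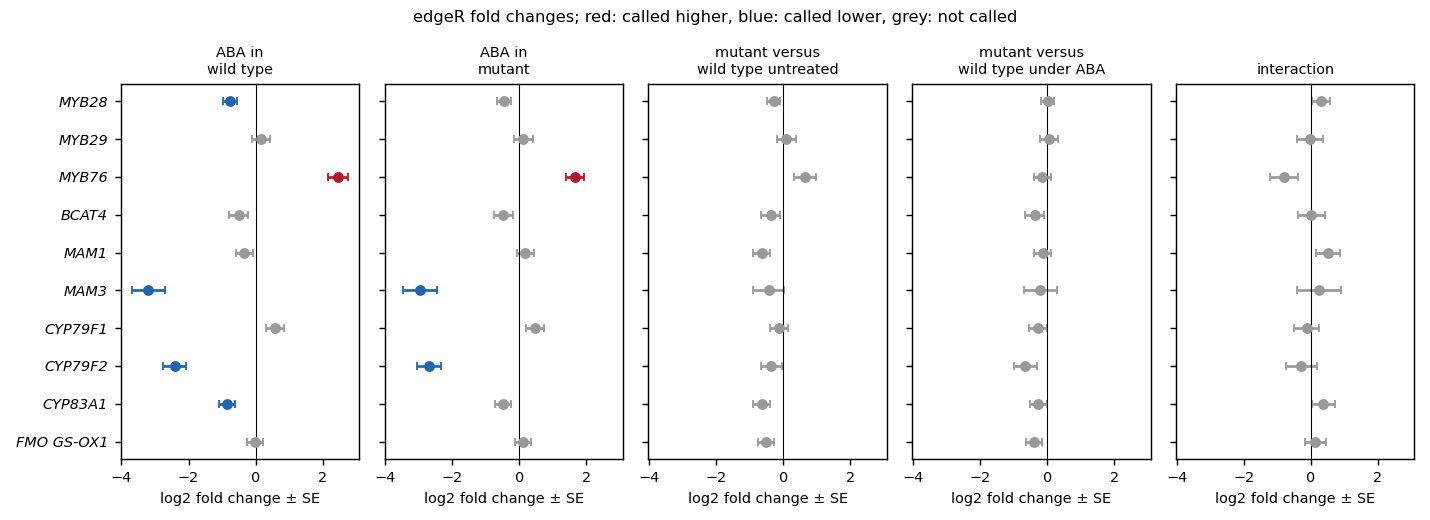
Log2 fold changes with their SE (horizontal axis, edgeR) of the 10 genes (vertical axis) in the 5 comparisons. Red points were called higher, blue points lower and grey points were not called. MAM3, CYP79F2 and MYB76 were called in both genotypes, and no gene was called in the 3 comparisons that involve genotype.

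Within the tandem pairs, the composition of the transcripts shifted with ABA in both genotypes. MAM3 made up 35.9%, 35.8% and 39.6% of the MAM1 and MAM3 counts in untreated wild type and 3.35%, 6.44% and 11.4% with ABA. In the mutant its share was 46.9%, 40.1% and 37.4% without and 5.14%, 5.59% and 9.49% with ABA. CYP79F2 made up 19.3% to 26.5% of the CYP79F1 and CYP79F2 counts in untreated wild type and 2.57% to 4.56% with ABA, and in the mutant 18.7% to 25.5% without and 2.27% to 3.18% with ABA. In both pairs every ABA library lay below every untreated library. MYB76 went the other way within its pair, with 5.43% to 6.54% of the MYB29 and MYB76 counts in untreated wild type and 21.2% to 29.9% with ABA, and with 5.59% to 10.4% in the untreated mutant and 20.6% to 21.4% with ABA. The share of MYB76 was above that of the untreated libraries in all 6 ABA libraries.

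The difference in response within each pair was tested on the log2 ratio of the counts in each library, with the treatment permuted within genotypes. This test was added after the values were seen. The ratio of MAM3 to MAM1 changed by -3.13 in wild type and -3.34 in the mutant, that of CYP79F2 to CYP79F1 by -3.12 and -3.27, and that of MYB76 to MYB29 by 2.38 and 1.59. Each had p = 0.005 in the exact two-sided permutation test, the smallest value that the 400 arrangements can give, and 0.005 after adjustment over the 3 pairs. The shares above already had ABA and untreated libraries fully apart, which fixes this p, so it adds no support to that separation. The genes of a pair are copies of one another, so reads could be shared between them. In the TAIR10.1 annotation the coding sequences are identical at 83.5% of aligned bases for MAM1 and MAM3, 91.1% for CYP79F1 and CYP79F2 and 76% for MYB29 and MYB76. No stretch of 50 bases is shared by the coding sequences of the MAM or the MYB pair, and 3.44% of the 50-base stretches of CYP79F1 also occur in CYP79F2. The sources used here do not say how shared reads were assigned. When the counts of each pair were summed, the MAM pair fell in wild type by 0.90 on the log2 scale (edgeR adjusted p = 0.00803), and the CYP79F and MYB pairs did not pass (0.26 and 0.46, edgeR adjusted p = 0.4 and 0.151). In the mutant none of the 3 sums passed, with -0.47, 0.17 and 0.34 (edgeR adjusted p = 0.138, 0.614 and 0.311).

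**Figure D3:**
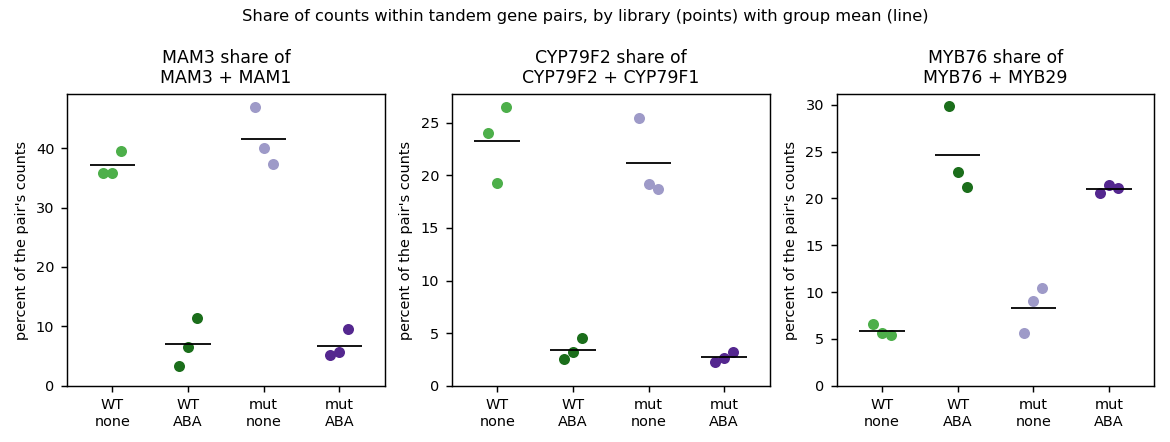
Share of the counts of each tandem pair (vertical axes, percent, from 0) that belonged to MAM3, CYP79F2 and MYB76, in wild type (WT) and mutant (mut) without treatment and with ABA. Points are libraries and lines group means. The first 2 shares are below 12% in all ABA libraries, and the share of MYB76 is above 20% there.

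The second question is whether the lincRNA11195 mutant differs from wild type. Without treatment 0 of the 10 genes were called by edgeR, 3 had an unadjusted p under 0.05 (MAM1, CYP83A1 and FMO GS-OX1) and 0 were called by DESeq2. Of all tested genes 23.6% were called, 14.8% lower and 8.77% higher. The median log2 difference of the mutant from wild type was -0.37 over the 10 genes and 0.01 over all tested genes. Of the genes with lower values in the mutant, the largest differences were those of MAM1, at 90.9, 120 and 188 CPM in the mutant against the 194 to 229 CPM of wild type (-0.64 ± 0.25, edgeR adjusted p = 0.083), and CYP83A1 (-0.64 ± 0.25, edgeR adjusted p = 0.0796). All mutant libraries of both genes lay below all wild type ones, and this held for 4 of the 10 genes, against 45.2% of all tested genes. FMO GS-OX1 stood at 15.1 to 21.8 CPM against 21.3 to 30.9 CPM (-0.52 ± 0.23, edgeR adjusted p = 0.117). MYB76 was at 0.65 ± 0.32 (edgeR adjusted p = 0.152), MYB29 at 0.09 ± 0.28, and the other 5 genes ranged from -0.43 for MAM3 to -0.14 for CYP79F1.

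The untreated mutant libraries differed among themselves. Mutant untreated replicate 1 had the lowest and replicate 3 the highest level of BCAT4, MAM1, CYP79F1, CYP83A1 and FMO GS-OX1 in that group. Replicate 1 also had the fewest counts of all libraries and the lowest sum of green tissue markers in its group, 4850 CPM against 9080 and 10900 CPM, and the part of this in the result was not tested. The order was not particular to this group. The mean scaled log2 CPM of the enzyme genes was also lowest in replicate 1 and highest in replicate 3 in both ABA groups. It went from -0.49 to 0.53 in wild type and from -1.46 to 0.25 in the mutant. In untreated wild type replicate 2 was highest (1.16). The green tissue markers of replicates 1, 2 and 3 summed to 6910, 6990 and 6160 CPM in wild type with ABA. They summed to 4880, 3370 and 6090 CPM in the mutant with ABA, and to 22600, 25600 and 23900 CPM in untreated wild type. The order of these sums thus differed from that of the enzyme genes in both ABA groups. Without mutant untreated replicate 3, MAM1 and CYP83A1 were called lower than in wild type (-0.98 and -0.91, edgeR adjusted p = 0.012 and 0.0231). Without mutant ABA replicate 3, which enters the shared estimate of spread, CYP83A1 alone was called (-0.64, edgeR adjusted p = 0.0493). With offsets for GC content and length, MYB28 alone was called (-0.52, edgeR adjusted p = 0.0458).

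With ABA, 0 of the 10 genes were called between the genotypes by edgeR, 0 had an unadjusted p under 0.05 and 0 were called by DESeq2. Of all tested genes 1.79% were called, 1.61% higher and 0.178% lower. The differences of the mutant from wild type ranged from -0.65 ± 0.35 for CYP79F2 to 0.06 ± 0.27 for MYB29, with a median of -0.23 against -0.01 over all tested genes. Groups overlapped for all 10 genes, whereas 19.4% of all tested genes had groups that did not overlap. MYB28 had nearly equal means in both genotypes with ABA, 67.5 ± 20.9 and 67.9 ± 9.81 CPM.

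The third question is whether the response to ABA differs between the genotypes, which the interaction tests as the mutant's response less the wild type's. Of the 10 genes 0 were called by edgeR, 0 had an unadjusted p under 0.05 and 0 were called by DESeq2, against 1.8% of all tested genes, 1.66% with a higher and 0.141% with a lower value. The interaction values ranged from -0.80 ± 0.41 for MYB76 (edgeR adjusted p = 0.467) to 0.51 ± 0.36 for MAM1 (edgeR adjusted p = 0.622). MAM3 was at 0.23 ± 0.66 and CYP79F2 at -0.29 ± 0.47. With these standard errors, the values limit a difference of response less well for MAM3 than for MYB28 (0.30 ± 0.28) or FMO GS-OX1 (0.13 ± 0.32). MYB28 and CYP83A1 were called in wild type and not in the mutant, but their interaction did not pass (0.30 ± 0.28 and 0.37 ± 0.35), so a difference between the genotypes is not shown.

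The rest of the aliphatic pathway was described by 6 lists with 39 genes, of which 38 were tested and 1 did not pass the filter on low counts. In wild type with ABA 11 of the 38 rose and 13 fell, against 25.2% and 28.2% of all tested genes, with a median log2 fold change of -0.10. In the mutant 10 rose and 9 fell, against 21.5% and 21.1% of all tested genes, with a median of -0.11. No test compared the lists with one another. Chain elongation and core structure genes were called lower or not at all, and side chain modification genes were called higher or not at all, in both genotypes.

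With ABA in wild type 28.2% of all tested genes fell and 25.2% rose. Of the 7 other chain elongation genes, 5 fell there and 0 rose, with a median of -1.03. They were the isopropylmalate isomerase subunits IPMI SSU2 (-1.84 ± 0.33) and IPMI SSU3 (-1.26 ± 0.27, or -0.67 with GC and length offsets), the isopropylmalate dehydrogenases IPMDH3 (-1.38 ± 0.28) and IPMDH1 (-1.03 ± 0.27), and the aminotransferase BCAT3 (-0.65 ± 0.18, a call lost without wild type untreated replicate 2). In the mutant, where 21.1% of all tested genes fell, IPMDH3 (-1.02 ± 0.28), IPMDH1 (-0.87 ± 0.27) and BCAT3 (-0.60 ± 0.18) fell and the other 4 did not pass. All 3 calls were lost without mutant ABA replicate 1. Those of IPMDH1 and BCAT3 were also lost without mutant ABA replicate 2 or mutant untreated replicate 3, and that of BCAT3 without mutant untreated replicate 2.

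Of the 8 other core structure genes, 4 fell in wild type and 0 rose, against 28.2% and 25.2% of all tested genes. The sulfotransferase gene SOT18, whose enzyme makes the last step of the core, was at -0.70 ± 0.18 and the glucosyltransferase gene UGT74C1 at -0.89 ± 0.28, while the glutathione transferase gene GSTF11 was at -0.84 ± 0.34 and the C-S lyase gene SUR1 at -0.51 ± 0.16. With GC and length offsets 1 of the 8 was called lower, and SOT18 was at -0.13, UGT74C1 at -0.43 and GSTF11 at -0.47. GSTF11 was close to the threshold (edgeR adjusted p = 0.0499), and its call was lost when any 1 of the 6 wild type libraries, mutant untreated replicate 2 or mutant ABA replicate 2 was left out. The call of SUR1 was lost without wild type untreated replicate 2, wild type ABA replicate 1 or wild type ABA replicate 2. In the mutant, where 21.1% of all tested genes fell, SOT18 (-0.75 ± 0.18) and UGT74C1 (-0.80 ± 0.28) fell. The call of UGT74C1 in the mutant was lost without mutant untreated replicate 2 or 3, mutant ABA replicate 1 or 2, or wild type ABA replicate 2.

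Of the 6 side chain modification genes tested besides FMO GS-OX1, 5 rose in wild type and 5 in the mutant and 1 did not pass in either, with medians of 1.49 and 1.18. Over all tested genes 25.2% rose in wild type and 21.5% in the mutant. FMO GS-OX4 rose 9.66-fold and 10.6-fold, and FMO GS-OX2 5.49-fold and 6.39-fold, with SE of 0.19 and 0.15 on the log2 scale (edgeR adjusted p of 1.39e-07 or less for all 4 values). These are S-oxygenases of the same family as FMO GS-OX1, which stood at -0.02 ± 0.23 and 0.11 ± 0.23. On the log2 scale GSL-OH, a dioxygenase gene for hydroxylation of the side chain, rose by 1.75 ± 0.21 and 1.46 ± 0.21, and AOP2, which the annotation lists as a transcribed pseudogene, by 1.23 ± 0.26 and 0.90 ± 0.26. FMO GS-OX3 was called at 0.69 ± 0.22 and 0.73 ± 0.22, calls that were lost with GC and length offsets. They were also lost without wild type ABA replicate 3 in wild type, and without mutant untreated replicate 1 or mutant ABA replicate 3 in the mutant. The call of AOP2 in the mutant was lost without mutant untreated replicate 2 or mutant ABA replicate 2.

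**Figure D4:**
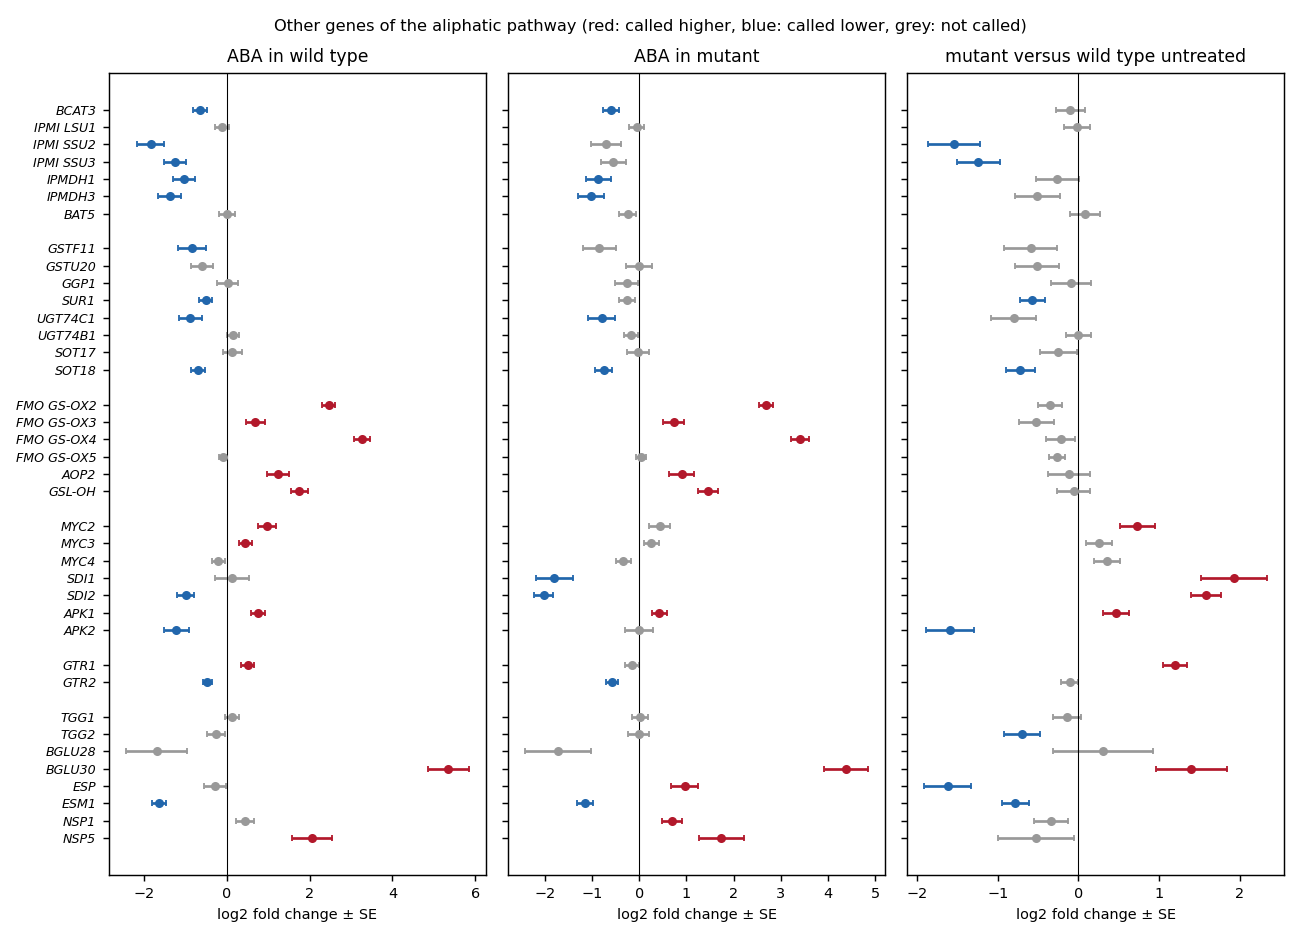
Log2 fold changes with their SE (horizontal axes, edgeR) of 38 other genes of the aliphatic pathway, grouped from top to bottom as chain elongation, core structure, side chain modification, regulators and sulfate activation, transport and breakdown, in 3 comparisons. Red points were called higher, blue lower and grey not called. FMO GS-OX2 and FMO GS-OX4 lie far to the right with ABA in both genotypes.

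Among the 7 regulators and sulfate activation genes, 3 rose and 2 fell with ABA in wild type, and 1 rose and 2 fell in the mutant. Over all tested genes 53.4% and 42.5% were called in these comparisons. MYC2, a bHLH partner of the MYB factors, rose in wild type by 0.97 ± 0.22. MYC3 rose there by 0.44 ± 0.16, a call lost with GC and length offsets. It was also lost without wild type untreated replicate 2 or wild type ABA replicate 1 or 2. APK1 rose by 0.75 ± 0.16 in wild type and by 0.42 ± 0.16 in the mutant (edgeR adjusted p = 0.0488). The mutant call was lost without a filter, in the fit of 2 groups, with the offsets and in most fits that left out a single library. SDI2, known as a repressor of glucosinolate synthesis under sulfur deficiency, fell 2.01-fold in wild type and 4.07-fold in the mutant (SE of 0.20 on the log2 scale for both). Its relative SDI1 did not pass in wild type (0.12 ± 0.41) and fell in the mutant by 1.80 ± 0.40. The APS kinase gene APK2, whose enzyme makes the sulfate donor, fell in wild type by 1.22 ± 0.30 and did not pass in the mutant (edgeR adjusted p = 0.993). Of the transporters, GTR2 fell in both genotypes (-0.47 ± 0.11 and -0.58 ± 0.12), and GTR1 rose in wild type (0.50 ± 0.15) but did not pass in the mutant (-0.16 ± 0.15). In the interaction edgeR called 0 of the 7 genes and 0 of the 2 transporters, against 1.8% of all tested genes. The edgeR adjusted p was 0.129 for SDI1, 0.0839 for SDI2, 0.212 for APK2 and 0.167 for GTR1. DESeq2 called 2 of the 7 and 1 of the 2 there.

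Of 8 breakdown genes, 2 rose and 1 fell with ABA in wild type, and 4 rose and 1 fell in the mutant. Over all tested genes 53.4% and 42.5% were called in these comparisons. BGLU30, a beta-glucosidase gene also known from darkness and sugar starvation, rose by 5.35 ± 0.50 in wild type (4.66 without wild type ABA replicate 1) and 4.38 ± 0.47 in the mutant. The nitrile specifier gene NSP5 rose by 2.05 ± 0.48 in wild type (1.36 without wild type ABA replicate 1) and 1.74 ± 0.48 in the mutant, where the call was lost without mutant ABA replicate 1. ESM1, which favours isothiocyanate products, fell by 1.65 ± 0.17 and 1.16 ± 0.17. In the mutant ESP (0.96 ± 0.29) and NSP1 (0.69 ± 0.21) were also called. The call of ESP was lost in the fit of 2 groups and without mutant untreated replicate 2 or mutant ABA replicate 3, and that of NSP1 without mutant untreated replicate 2 or mutant ABA replicate 1. The myrosinase gene TGG2 was at -0.26 ± 0.22 and -0.01 ± 0.22, which did not pass.

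Between the untreated genotypes, 6 of the 38 were higher in the mutant and 8 lower, 14 in all, against 8.77% higher and 14.8% lower of all tested genes. With GC and length offsets 3 were higher and 5 lower. SDI1 and SDI2 were higher in the mutant by 1.93 ± 0.41 and 1.58 ± 0.19 and the transporter gene GTR1 by 1.20 ± 0.15. Lower were APK2 (-1.59 ± 0.30), IPMI SSU2 (-1.54 ± 0.32), IPMI SSU3 (-1.24 ± 0.27) and ESP, the epithiospecifier gene of nitrile formation (-1.62 ± 0.29). Of the 6 side chain modification genes 0 were called by edgeR, 3 had an unadjusted p under 0.05 and 1 was called by DESeq2. With ABA 0 of the 38 were called between genotypes by edgeR, 5 had an unadjusted p under 0.05 and 2 were called by DESeq2. In the interaction these numbers were 0, 6 and 3. Of all tested genes edgeR called 1.79% between genotypes with ABA and 1.8% in the interaction, so 0 of 38 is near the background. The mutant's values for ABA and for the untreated comparison use the same untreated mutant libraries.

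The indole glucosinolate branch, which starts from tryptophan, was set beside these genes. Of its 7 listed genes, 1 fell and 0 rose with ABA in wild type, and 1 fell and 1 rose in the mutant, where 53.4% and 42.5% of all tested genes were called. The wild type call, MYB51 at -0.45 ± 0.16, was lost in the fit of 2 groups and without wild type untreated replicate 3, wild type ABA replicate 1 or 2, or mutant untreated replicate 2. Between the untreated genotypes 1 of the 7 was higher in the mutant and 3 were lower, against 8.77% and 14.8% of all tested genes. The 3 lower ones were MYB34 (-0.53 ± 0.14), CYP79B2 (-0.95 ± 0.16) and CYP83B1 (-0.56 ± 0.16). The call of MYB34 was lost when replicate 2 of either untreated genotype was left out, and that of CYP83B1 with GC and length offsets, in the fit of 2 groups, and without any 1 of the 3 wild type untreated libraries or mutant untreated replicate 1 or 2. The regulator gene MYB51 was higher in the untreated mutant than in untreated wild type by 1.80 ± 0.16 and with ABA by 1.26 ± 0.16, whereas MYB28 was at -0.29 ± 0.20 and 0.01 ± 0.20. Whether the branches differ was not tested.

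The joint level of the 7 enzyme genes, the mean of their scaled log2 CPM, was compared with 16378 other nuclear genes with a mean of at least 5 CPM. The 8 genes most like it over the 12 libraries had a Pearson r of 0.923 to 0.938. They were NPC2, AT3G18420, OASC, PDIL1-1, GSTF11, AGP14, AT5G63680 and SUR1. GSTF11 and SUR1 are core structure genes of the pathway. The 12 libraries fall into treatment and genotype groups and share these differences, so r describes the likeness only. Among the 10 genes, r to the joint level was 0.976 for BCAT4, 0.957 for CYP83A1, 0.881 for MAM1, 0.819 for FMO GS-OX1, 0.697 for CYP79F2, 0.681 for MAM3 and 0.363 for CYP79F1, which are part of it, and among the regulators 0.682 for MYB28, 0.252 for MYB29 and -0.346 for MYB76.

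The stretches from 250 bases before to 50 bases after the annotated start of each gene were searched on both strands in TAIR10.1. The AC element (ACCTACC, with the variants ACCAACC and also ACCTAAC), which several R2R3 MYB factors are known to bind, occurred in 4 of the 10 genes, CYP79F1, CYP79F2, CYP83A1 and FMO GS-OX1, and in 7.3% of 27444 nuclear protein-coding genes. The letters ACGTG, the core of the ABA response element, occurred in 6 of the 10, MYB28, MYB76, CYP79F1, CYP79F2, CYP83A1 and FMO GS-OX1, and in 26.7% of all genes. The G-box CACGTG, which contains ACGTG and is bound by bHLH factors such as MYC2, occurred in CYP83A1 and in 7.7% of all genes. CYP79F1 and CYP79F2, which differed in their response to ABA, both held the AC and ACGTG letters, and MAM1 and MAM3 held none of the 3 motifs in this window.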

How the data were processed

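The deposited table holds raw counts per gene for 4 groups with 3 biological replicates each, and nothing in its values shows a normalization by the authors. Per the labels, the kit was a stranded mRNA one. Trim Galore 0.3.3, edgeR (no version) and the build TAIR10 stand in the submitters' processing notes. The sources used here name no aligner or counting tool, and no strand setting. Columns were assigned to samples by their names.

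filterByExpr by group left 21322 of 33610 genes, with 99.96% of counts. The test was the quasi-likelihood one of edgeR 4.0.16 (R 4.3.3), with TMM scaling, in 1 model with a mean per group and no block, and the common biological coefficient of variation was 0.185. The 5 comparisons are those of the text, with Benjamini-Hochberg adjustment over all tested genes and calls at 0.05. SE is the absolute log2 fold change over the square root of F. The floors cover counting error only. The SE and SD values include the variation between biological replicates. The workflow was tested on simulated data. Alternatives were RLE scaling, DESeq2 1.42.0, other filters, fits of 2 groups, GC and length offsets, summed tandem pairs, a replicate block and leaving out each library.

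The 10 genes and all lists were chosen with earlier results of these data known. Named were the 10 genes, other listed genes called in at least 1 comparison, and the 8 genes most like the enzyme genes. Same-numbered libraries of different groups had residual correlations of -0.312 to 0.489, with 6 of 18 above 0.1, so they were treated as unpaired. Exonic length, GC content, coding sequences and promoters came from RefSeq's TAIR10.1 annotation, which covered 21042 of the tested genes. No coordinates are printed because the labels name TAIR10.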

Additional observations from a re-analysis of the deposited data

How the results depend on the processing

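Leaving out 1 library at a time gave 3 to 5 of the 10 genes called for ABA in the mutant and 0 to 2 for the untreated genotypes. Summing tandem pairs gave 0 calls for ABA in the mutant, with MAM1 and MAM3 together at -0.47 and CYP79F1 and CYP79F2 together at 0.17, and the latter at 0.26 in wild type. MYB29 and MYB76 together were at 0.01 between genotypes under ABA. GC and length offsets gave 1 call between the untreated genotypes. The other values that changed sign were not called under the main settings. With the offsets, MYB29 was at -0.05 for ABA in wild type, -0.08 for ABA in the mutant and between the untreated genotypes, and -0.11 between genotypes under ABA. MYB28 was at -0.14 there, and the interactions of BCAT4 and CYP79F1 were at -0.08 and 0.15. The interaction of BCAT4 was -0.01 with RLE scaling and with DESeq2. FMO GS-OX1 with ABA in wild type was at 0 with DESeq2 and 0.03 in the fit of 2 groups. The cause was not tested.

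Without 1 library, ABA in wild type ranged from -0.25 to 0.43 for MYB29 and -0.18 to 0.21 for FMO GS-OX1, and ABA in the mutant from -0.06 to 0.5 for MAM1 and -0.09 to 0.31 for FMO GS-OX1. Between untreated genotypes MYB29 ranged from -0.02 to 0.3 and CYP79F1 from -0.42 to 0.07. Under ABA the ranges were -0.19 to 0.26 for MYB28, -0.21 to 0.46 for MYB29, -0.28 to 0.09 for MYB76, -0.36 to 0.06 for MAM1 and -0.87 to 0.53 for MAM3. For the interaction they were -0.3 to 0.37 for MYB29, -0.37 to 0.27 for BCAT4, -0.44 to 0.96 for MAM3, -0.37 to 0.15 for CYP79F1, -0.7 to 0.18 for CYP79F2 and -0.1 to 0.32 for FMO GS-OX1. Of the single-gene values under all alternatives, 910 kept direction and side of the threshold, 59 changed sign, 17 passed it newly and 4 no longer passed with the same sign. Of those that changed sign, 2 had been called, CYP79F2 in both genotypes, whose pair sums did not pass.

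The replicate block gave 2 calls between the untreated genotypes, MAM1 at -0.71 (edgeR adjusted p = 0.0248) and CYP83A1 at -0.69 (edgeR adjusted p = 0.0298), and added BCAT4 (-0.54, edgeR adjusted p = 0.043) and CYP79F1 (0.55, edgeR adjusted p = 0.0385) for ABA in wild type. The numbers are not known to pair the libraries. The list counts under the alternatives and the test of the pair ratios were chosen after seeing the data.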
